A study of Canis lupus familiaris with 33 samples.

Results

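The genes described here are regulators and markers of mesenchymal transition in canine invasive urothelial carcinoma (iUC). They were chosen by symbol: the transcription factors ZEB1, ZEB2, TWIST1 and SNAI1, the intermediate filament gene VIM, and the cadherins CDH2 and CDH11. Of these 7 symbols, 6 had a row among the 25096 genes of the TMM-normalized table, and TWIST1 was not analysed here. RNA was sequenced from 29 iUC biopsies taken at cystoscopy, each from a different dog that had received no treatment, and from 4 samples of normal bladder mucosa separated by dissection. Per the study's methods, the tumors were high grade and almost wholly epithelial on histology, and the normal urothelial layer came from dogs euthanized for conditions outside the bladder. The labels call the normal samples urothelial cells, and they give neither age nor breed. Both groups are bulk tissue, so fewer cells of a type and less RNA per cell cannot be told apart in any result below.

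In an epithelial to mesenchymal transition, epithelial cells lose E-cadherin junctions and apical polarity and take on the shape and motility of mesenchymal cells. The zinc finger proteins ZEB1, ZEB2 and SNAI1 and the basic helix-loop-helix protein TWIST1 repress E-cadherin (CDH1) by binding E-box motifs or by acting with other repressors. Vimentin, N-cadherin (CDH2) and cadherin-11 (CDH11) are among the proteins read as markers of the mesenchymal state. The same genes are active in fibroblasts, smooth muscle, endothelium, leukocytes or nerve, all of which lie in or under the bladder mucosa.

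Deposited values are on the log2 scale and centred on the gene's median across the 33 samples, so 0 is the median sample and values can be compared between samples but not between genes. A gene's shared lowest value, where several samples sit at the same minimum, stands for no detected expression. The normal samples had between 755 and 1019 genes at that lowest value and the tumors between 3699 and 8175. Of 140 olfactory receptor genes with such a value, which no bladder cell is known to need, 100% lay above it in every normal sample and between 4.29% and 92.1% did in the tumors. Tumors 9, Po and 5 stood apart with 77.1%, 86.4% and 92.1%. The number of reads behind each sample was not known from these values.

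The transcripts of 5 members fell in iUC against normal mucosa, namely ZEB1, ZEB2, VIM, CDH2 and CDH11. SNAI1 did not pass the test. The count of 5 lower members among 6 stands against 45.8% of 24471 tested genes called lower and 10.7% called higher (limma with Benjamini-Hochberg adjustment over all tested genes, where a call needed an adjusted p no higher than 0.05 and a 2-fold difference). The median log2 fold change was -2.50 over the members and -0.84 over all tested genes, and -0.01 over the 18418 genes above the lowest value in at least 17 samples. In 3 members (ZEB1, VIM and CDH2) every tumor lay below every normal sample, which held for 28.5% of all tested genes.

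Among the regulators, ZEB1 (ENSCAFG00000004023) had relative log2 values of 2.73, 3.01, 2.82 and 3.55 in normal samples A, B, C and D. In the tumors it ran from -1.86 in tumor Mis, with a median of -0.32, to 2.05 in tumor Da6. The groups did not overlap, and the tumors were spread over 3.91 on the log2 scale. The log2 fold change was -3.08 (SE 0.51, adjusted p = 2.41e-06, n = 4 normal and 29 tumor samples).

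ZEB2 (ENSCAFG00000005497), the second member of the ZEB family, had values of 1.59, 1.63, 1.65 and 1.96 in normal samples A, B, C and D. The tumors ran from -1.28 in tumor Mis, with a median of -0.11, to 1.80 in tumor Za. Tumor Za lay among the normal samples, above 3 of them, and the other 28 tumors lay below every normal sample. The log2 fold change was -1.65 (SE 0.45, adjusted p = 0.00148).

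SNAI1 (ENSCAFG00000011499), the snail family repressor of CDH1, had values of -0.03, 0.52, -0.05 and 0.93 in normal samples A, B, C and D. The tumors ran from -2.36 in tumor 2_699898, with a median of 0.00, to 3.23 in tumor Da6. The groups overlapped throughout: 12 tumors lay below every normal sample, 9 lay among them and 8 lay above all of them. The log2 fold change of -0.19 (SE 0.58, adjusted p = 0.780) was smaller than the spread of the tumors (SD 1.18), and it was 0.01 when normal sample D was left out.

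Among the markers, VIM (ENSCAFG00000004529) had values of 2.82, 2.96, 3.29 and 3.16 in normal samples A, B, C and D. The tumors ran from -1.60 in tumor 5, with a median of -0.19, to 1.53 in tumor 8_734_223. The highest tumor was still below the lowest normal sample. The log2 fold change was -3.11 (SE 0.47, adjusted p = 4.29e-07).

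CDH2 (ENSCAFG00000018115), the neuronal and mesenchymal N-cadherin, had values of 5.18, 4.84, 4.95 and 4.96 in normal samples A, B, C and D. The tumors ran from -2.69, with a median of -0.40, to 1.25 in tumor 9. The groups were far apart, and 5 tumors (15, 3, CH, Da6 and Ja) sat at the lowest value of the gene. The log2 fold change was -5.63 (SE 0.64, adjusted p = 1.64e-09). Measured from that lowest value, CDH2 stood 7.53 to 7.87 log2 units up in the normal samples and at a median of 2.29 in the tumors. Of 145 olfactory receptor genes tested, 144 were also called lower in tumors, with a median log2 fold change of -5.35 (range -7.13 to -0.68), and 44 of them changed by as much as CDH2 or more. Of the 140 with a shared lowest value, 2 stood higher above it than CDH2 (mean 7.67) in the normal samples. There the 140 had a median of 5.79 (range 3.62 to 8.28). The median gene of the 140 was at its lowest value in 25 of 29 tumors. The part of that wider difference in the CDH2 result was not tested.

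CDH11 (ENSCAFG00000020425), the cadherin of osteoblasts and connective tissue fibroblasts, had values of 1.76, 1.92, 1.38 and 2.20 in normal samples A, B, C and D. The tumors ran from -2.54 in tumor 10, with a median of -0.13, to 1.98 in tumor Po. Tumors 20, 8_734_223, Za and Po lay among the normal samples and the other 25 lay below all of them. The log2 fold change was -1.91 (SE 0.56, adjusted p = 0.00291).

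**Figure D1:**
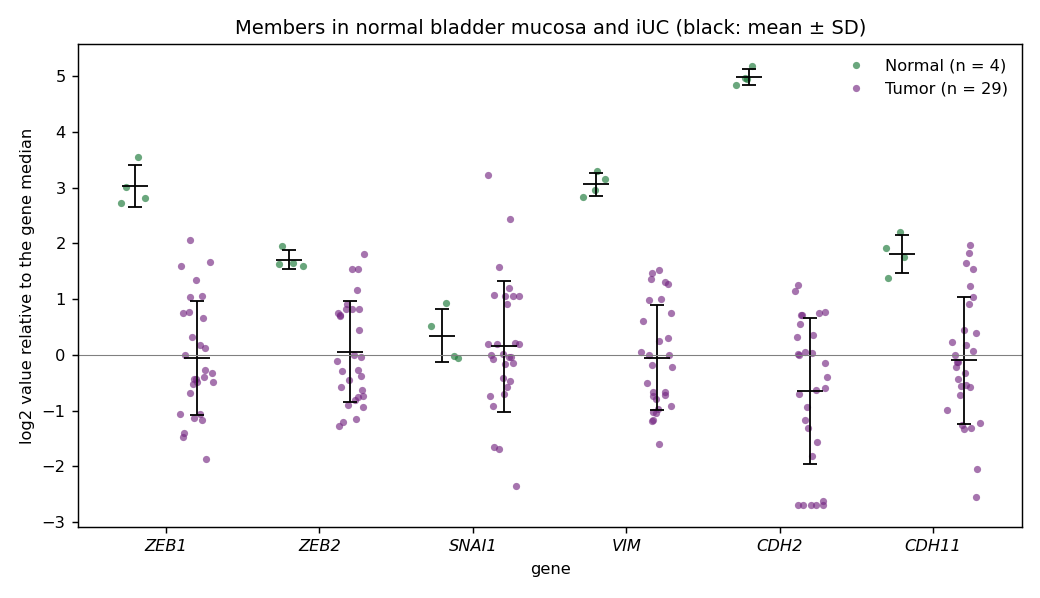
Relative log2 value (vertical axis, 0 is the median of the gene over all samples) of the 6 members in 4 normal mucosa samples and 29 tumors; points are samples and black marks are the mean ± SD. Normal samples lie above every tumor for ZEB1, VIM and CDH2, meet the highest tumors for ZEB2 and CDH11, and lie within the tumors for SNAI1.

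Ordered by size of change, the members ran CDH2, VIM, ZEB1, CDH11, ZEB2 and SNAI1. The 5 neighbouring pairs in this order were compared with exact permutation tests of the difference between the changes (two-sided, 40920 arrangements of the samples, unadjusted p). Differences are on the log2 scale, the first gene's change minus the second's. CDH2 fell more than VIM (-2.52, p = 0.00166) and ZEB1 more than CDH11 (-1.17, p = 0.00420). ZEB2 and SNAI1 differed by -1.46 (p = 0.0307). The changes of VIM and ZEB1 (-0.03, p = 0.889) and of CDH11 and ZEB2 (-0.26, p = 0.484) were not distinguishable.

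Markers of the tissue below the urothelium were set beside the members and the 45.8% of all genes called lower. Of 13 smooth muscle genes, 6 were measured and all 6 were lower in tumors, led by ACTG2, the enteric smooth muscle actin (log2 fold change -7.05), and TPM2, a tropomyosin (-6.28). The mean relative log2 value over those 6 genes ran from 4.63 to 6.54 in the normal samples and from -1.29 to 3.58 in the tumors. Of 8 measured fibroblast genes, 6 were lower, including the matrix proteoglycan gene DCN (-3.87) and DPT (-3.88), and the list mean ran from 2.00 to 2.56 in the normal samples and from -2.13 to 2.08 in the tumors. Of 5 measured Schwann cell and nerve genes, 3 were lower, a share near that of all genes, among them the neural adhesion gene NCAM1 (-6.51), while ERBB3, which epithelium also carries, was higher (2.24). This list ran from 2.75 to 3.08 in the normal samples and from -1.17 to 1.96 in the tumors. None of the genes measured on these lists was at its lowest value in all samples of a group. Set against the smooth muscle median of -6.05, the log2 change of CDH2 was 0.42 and that of ZEB2 was 4.40, and each of the 5 members called lower changed less than that median. The part of these cell types in the fall of the members was not tested.

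Vascular and immune genes were read against the same shares, 45.8% of all genes lower and 10.7% higher. None of 7 measured endothelial cell genes passed the test in limma (median log2 fold change -0.06), and the smallest p was that of the angiopoietin receptor TEK (0.0903 unadjusted, 0.118 adjusted). Of 13 measured leukocyte genes, 2 were lower, 1 was higher and 10 did not pass. The macrophage gene CD68 was higher by 1.95 and the myeloid integrin ITGAM had a log2 fold change of -1.47.

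Most epithelial genes measured were higher in tumors, against 10.7% of all tested genes. Of 13 measured epithelium genes, 9 were higher in tumors, 1 was lower and 3 did not pass, with CLDN7, a tight junction claudin, at 2.37 and CDH1, the target of the ZEB and snail repressors, at 2.15. Of 11 measured epithelial regulators, 9 were higher, led by ELF3 (2.27) and KLF5 (1.94), and none was lower. The epithelium list ran from -2.04 to -0.74 in the normal samples and from -0.76 to 0.67 in the tumors.

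Other genes of the transition were read against the 45.8% of all tested genes called lower and 10.7% called higher. Of 12 other regulators, 4 were lower, 4 were higher and 4 did not pass, and the smallest adjusted p values belonged to SOX9 (2.50) and TCF3 (1.06), both higher. Of 15 other markers, 9 were lower and none was higher, with the collagen cross-linking enzyme gene LOX at -3.97 and the actin-binding gene CALD1 at -3.53. Of 9 genes of TGF-beta input, the main signal that starts the transition, 2 were lower and 2 were higher, with the ligand gene TGFB3 at -3.16 and the signal transducer SMAD2 at 1.20. The differences between these lists were not tested.

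**Figure D2:**
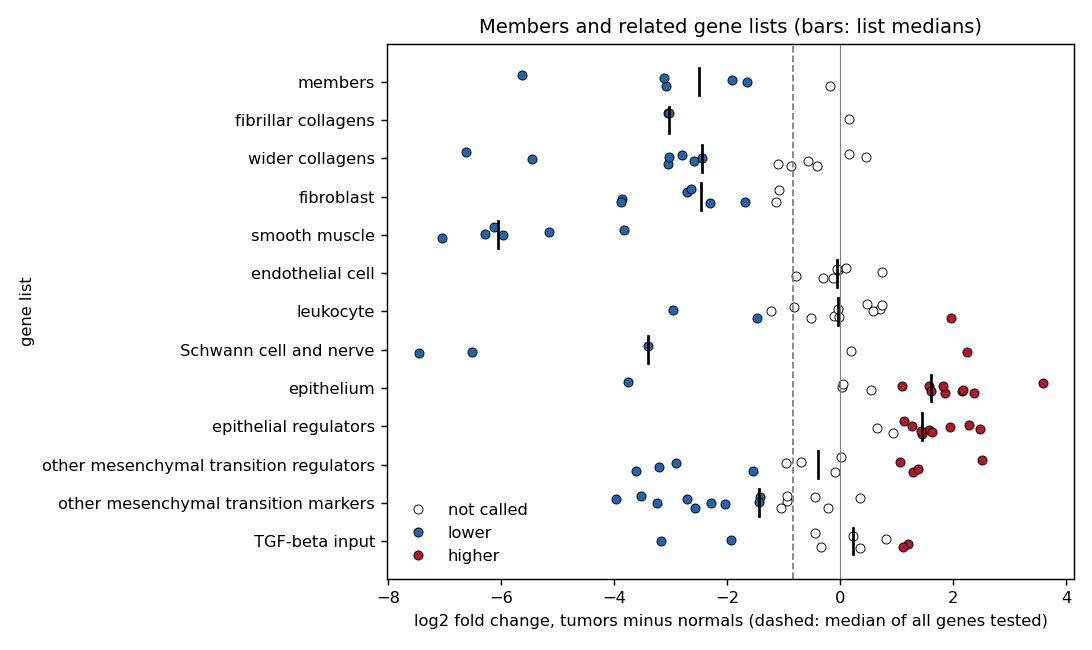
Log2 fold change of tumors against normals (horizontal axis) for the genes of each list (rows); filled points passed the test, open points did not, black bars are list medians and the dashed line is the median of all tested genes, -0.84. The median of the members, -2.50, lies near those of the fibroblast (-2.47), fibrillar collagen (-3.03) and wider collagen (-2.44) lists. Of 13 wider collagen genes 7 were lower, against 45.8% of all tested genes. The medians of the epithelium and epithelial regulator lists, 1.61 and 1.44, lie above 0.

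The relation to collagen was examined over the 29 tumors alone. The collagen level was the mean z-score of COL1A1, COL1A2 and COL5A1, which encode chains of fibrillar collagens and are 3 of 5 genes on that list. It ran from -1.79 in tumor 5 to 1.60 in tumor Po, with no gap wider than 0.50. VIM, ZEB1, CDH11 and ZEB2 rose with it, which is 4 of 6 members against 2.07% of 22017 tested genes, and SNAI1 and CDH2 did not pass. The members' median r was 0.60, and the median over all tested genes was 0.01.

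VIM had the highest relation, with r = 0.727 (adjusted p = 0.00117, Spearman's rho = 0.725). For ZEB1, r was 0.681 (adjusted p = 0.00424, rho = 0.715). CDH11 had r = 0.606 (adjusted p = 0.0205, rho = 0.623) and ZEB2 had r = 0.585 (adjusted p = 0.0304, rho = 0.557). With rho in place of r, ZEB2 did not pass (adjusted p = 0.0657). In two-sided permutation tests with 100000 resamples, the unadjusted p of r was 2.00e-05 for VIM, 5.00e-05 for ZEB1, 0.000590 for CDH11 and 0.000770 for ZEB2, and that of rho was 4.00e-05, 2.00e-05, 0.000500 and 0.00212 in the same order. With the 2 tumors of most extreme level left out, r was 0.653 for VIM, 0.625 for ZEB1, 0.526 for CDH11 and 0.541 for ZEB2. The last 2 then no longer passed in limma (adjusted p = 0.130 and 0.112), and leaving out tumor 18 or tumor Po alone also ended both calls, while leaving out tumor Za ended that of ZEB2.

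SNAI1 had r = 0.355 (rho = 0.339, permutation p = 0.0586 and 0.0736, adjusted p = 0.326) and CDH2 had r = -0.05 (rho = -0.07, permutation p = 0.809 and 0.729, adjusted p = 0.936). The difference between members was tested for 3 pairs chosen after their values were seen, by relating the difference of their z-scores to the collagen level. CDH11 differed from CDH2 (r = 0.519, permutation p = 0.00427) and VIM from CDH2 (r = 0.557, permutation p = 0.00178), both unadjusted. ZEB1 and SNAI1 were not distinguishable at 0.05 (r = 0.366, permutation p = 0.0509).

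Tumor Da6, singled out after its values were seen, departed from the trend. It had the highest ZEB1 and SNAI1 of the tumors, ZEB2 at 1.55 and VIM at 1.31, with a collagen level of -0.72 and CDH2 at its lowest value. Its level was 0.35 over a wider list of 13 measured collagen genes and 0.36 over the fibroblast genes. Its endothelial cell level was 1.55, its leukocyte level 1.56 and its epithelium level -0.99, the lowest of the tumors. All of these are mean z-scores. Without tumor Da6, r with the collagen level was 0.815 for ZEB1, 0.809 for VIM and 0.505 for SNAI1, and SNAI1 still did not pass (adjusted p = 0.0892).

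The 3 collagen genes did not carry the relation equally. COL1A2 had the highest r with VIM (0.858), ZEB1 (0.797), CDH11 (0.774) and ZEB2 (0.749). COL1A1 followed, with r between 0.616 and 0.727 for these 4 members. COL5A1 had r between 0.213 and 0.413 for them, although it had r = 0.673 with COL1A1 and 0.567 with COL1A2. These are descriptions over the same tumors, and the differences between collagen genes were not tested.

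**Figure D3:**
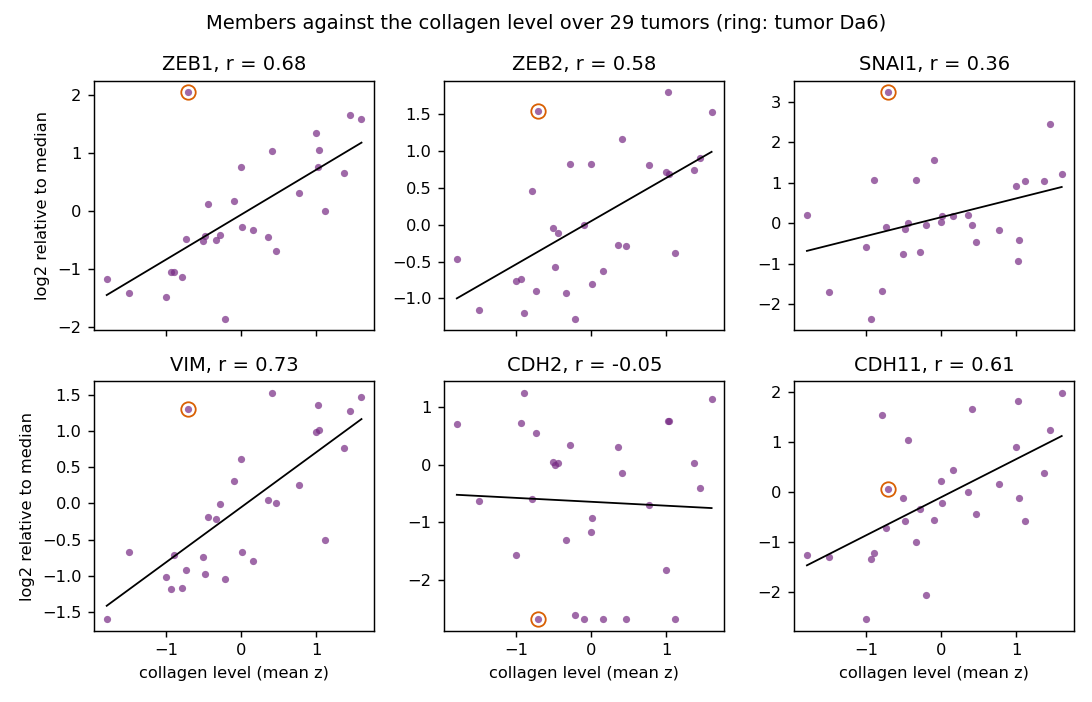
Relative log2 value of each member (vertical axis) against the collagen level, the mean z of 3 collagen genes (horizontal axis); each point is 1 of 29 tumors, lines are least-squares fits and the ring is tumor Da6. VIM and ZEB1 climb most closely with the level (r = 0.727 and 0.681), CDH2 shows no slope, and tumor Da6 lies above the line for ZEB1, ZEB2, SNAI1 and VIM.

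Other tissue levels moved with the collagen level and changed which members passed. The collagen level had r = 0.778 with the smooth muscle level and 0.782 with the fibroblast level over the same tumors, and r = -0.45 with the epithelium level. With the smooth muscle level as a covariate, none of the members passed in limma, and 4 of all tested genes rose with the collagen level. In that fit, CDH11 had a partial r of 0.512 (unadjusted p = 0.00388, adjusted p = 0.273), VIM 0.433 (0.0191, 0.417) and ZEB1 0.424 (0.0208, 0.423), and ZEB2 had 0.245 (adjusted p = 0.720). The slope of CDH11 was 0.686 log2 units per SD of the collagen level over the tumors (SE 0.168) without the covariate and 0.845 (SE 0.270) with it. With the epithelium level as a covariate, VIM alone passed (partial r = 0.649, adjusted p = 0.0209). There 203 of 22017 tested genes rose, against 455 without a covariate, and partial r was 0.571 for ZEB1, 0.489 for CDH11 and 0.436 for ZEB2. With leukocyte and endothelial cell levels as covariates, VIM (0.703, adjusted p = 0.0173) and ZEB2 (0.653, adjusted p = 0.0405) passed. In that fit 148 of 22017 tested genes rose. ZEB1 (0.559), CDH11 (0.549) and SNAI1, which turned negative (-0.17), did not pass. Without tumors 9, Po and 5, an alternative chosen after the data were seen, VIM alone passed, and 225 of 20916 tested genes rose. ZEB1 missed the threshold with r = 0.608 (adjusted p = 0.0519), CDH11 had r = 0.504 and ZEB2 had r = 0.512. Tumors Po and 5 are also the 2 tumors of most extreme collagen level, so this alternative overlaps the one without those 2.

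The fibroblast level gave higher r than the collagen level for each of these 4 members. It had r = 0.891 with ZEB1 (rho = 0.914), 0.884 with VIM (rho = 0.888), 0.766 with ZEB2 (rho = 0.739) and 0.745 with CDH11 (rho = 0.689), and these 4 passed, against 3.61% of tested genes rising. SNAI1 (r = 0.450, adjusted p = 0.142) and CDH2 (r = 0.109, adjusted p = 0.864) did not pass. With the smooth muscle level, VIM (0.677), ZEB1 (0.602) and ZEB2 (0.592) passed against 1.69% of genes, and CDH11 did not (0.400, adjusted p = 0.320). For CDH11, rho with that level was 0.605 (permutation p = 0.000590), and r was 0.574 when the 2 tumors with the most extreme smooth muscle level were left out. Whether 2 levels differ in their relation to a member was not tested.

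The endothelial cell level was the only one of the 6 other cell type levels with which SNAI1 passed, with r = 0.730 (rho = 0.603, adjusted p = 0.000384). ZEB1 (0.854), VIM (0.758), ZEB2 (0.652) and CDH11 (0.561) passed as well, so 5 of 6 members rose with it against 3.59% of genes. When the 2 tumors with the most extreme endothelial level were left out, r for SNAI1 was 0.597. With the leukocyte level, ZEB2 had the highest r (0.749, rho = 0.706), VIM (0.576), CDH11 (0.542) and ZEB1 (0.541) followed, and these 4 passed against 3.21% of genes.

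Along the epithelium level, ZEB1 (r = -0.63, adjusted p = 0.0295) and ZEB2 (r = -0.61, adjusted p = 0.0340) fell, against 1.55% of genes falling. VIM (-0.50) and CDH11 (-0.51) did not pass (adjusted p = 0.0887 and 0.0813). None of the members passed with the Schwann cell and nerve level in limma, where 0.0999% of genes were called in either direction. The unadjusted permutation p of r was 0.241 or higher. That level averages 5 genes, among them ERBB3, which epithelium also carries.

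In its relations to levels, CDH2 was compared with other members (VIM and CDH11) along the collagen level only. It passed with none of the collagen and cell type levels. The percentage of detected olfactory receptor genes was the only level with which it passed (r = 0.518, rho = 0.391, adjusted p = 0.0472), against 8.90% of genes rising, and no other member passed with that share. Without tumors 9, Po and 5 its r was 0.312 over 26 tumors (adjusted p = 0.978). With CDH2 itself as the measure, 0% of 22029 genes passed in either direction in limma, while 2260 had an unadjusted p under 0.05. With DESeq normalization, 0 of 21919 passed and 2364 had such a p.

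**Figure D4:**
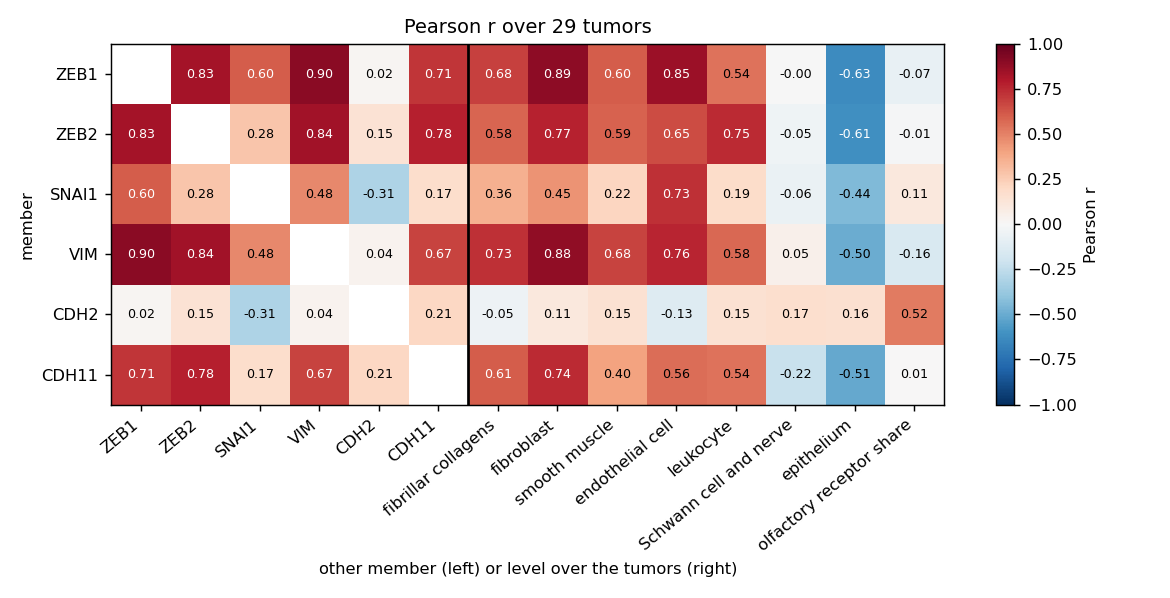
Pearson r over 29 tumors between each member (rows) and the other members or cell type levels (columns); red is positive and blue negative. ZEB1, ZEB2, VIM and CDH11 share high values with each other and with the fibroblast level, SNAI1 has its highest value with the endothelial cell level (0.730), and CDH2 with the olfactory receptor share (0.518).

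Among the members themselves, 7 of 15 pairs passed with either gene as the measure. ZEB1 and VIM were closest (r = 0.903, rho = 0.871), followed by ZEB2 and VIM (0.840), ZEB1 and ZEB2 (0.83), ZEB2 and CDH11 (0.777), ZEB1 and CDH11 (0.712), VIM and CDH11 (0.675) and ZEB1 and SNAI1 (0.604). The last fell to 0.416 without the 2 tumors farthest from the median of ZEB1. For comparison, 4.80% of all tested genes rose with ZEB1, 5.14% with ZEB2, 4.09% with VIM, 2.64% with CDH11 and 0.872% with SNAI1. With the collagen level as a covariate, 4 of these 7 pairs still passed: ZEB1 with ZEB2, ZEB1 with VIM, ZEB2 with VIM, and ZEB2 with CDH11. Of 22029 genes, 804 then rose with ZEB1 (1057 without the covariate), 864 with ZEB2 (1133) and 637 with VIM (902). The same counts were 340 for CDH11 (581) and 102 for SNAI1 (192).

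CDH1, the E-cadherin gene, fell as ZEB1 (r = -0.67, adjusted p = 0.00424), VIM (-0.65, adjusted p = 0.00665) and ZEB2 (-0.65, adjusted p = 0.00640) rose. Falling genes made up 0.499% of those tested with ZEB1, 0.313% with VIM and 0.658% with ZEB2. CDH1 did not pass with CDH11 (-0.52, adjusted p = 0.0895), SNAI1 (-0.41, adjusted p = 0.313) or CDH2 (-0.02, adjusted p = 0.987). With the collagen level as a covariate, CDH1 passed with none of ZEB1 (-0.45, adjusted p = 0.199), ZEB2 (-0.46, adjusted p = 0.173) and VIM (-0.41, adjusted p = 0.279).

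The genes with the most similar pattern over the 29 tumors were taken as the 3 highest r for each member. ZEB1 was closest to EBF1 (0.927), the endothelial adhesion gene PECAM1 (0.925) and the transcription factor gene TCF4 (0.922). ZEB2 was closest to RASA3 (0.949), APBB1IP (0.933) and RGL1 (0.927). SNAI1 was closest to HAPLN3 (0.782), ARHGEF15 (0.758) and KDR (0.749), the last being a receptor for vascular endothelial growth factor.

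VIM was closest to OAF (0.946), CALD1 (0.924) and SPARC (0.896), the last a matrix glycoprotein gene. CDH11 was closest to the receptor tyrosine kinase gene AXL (0.836), SCUBE3 (0.814) and RGL1 (0.810), so RGL1 was named for both ZEB2 and CDH11. CDH2 was closest to DAW1 (0.677), C2orf70 (0.666) and ADAM7 (0.664), none of which passed (adjusted p = 0.179 each).

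Related lists were set beside the members along the collagen level, with which 2.07% of all tested genes rose. All 6 measured smooth muscle genes rose with it, with TAGLN (r = 0.804) and TPM2 (0.746) first. Of 8 measured fibroblast genes 6 rose, including PDGFRB, a receptor of pericytes and fibroblasts (0.818), and FBLN1 (0.694). Of 7 measured endothelial cell genes 4 rose, with CDH5 at 0.697 and TEK at 0.686, and none of 13 leukocyte genes passed (smallest adjusted p 0.547).

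Of 15 other transition markers 7 rose, led by the matrix gene TNC (0.859) and CALD1 (0.843). Of 12 other regulators 2 rose, PRRX1 (0.586) and TCF4 (0.571). Of 9 genes of TGF-beta input, ENG, an endothelial co-receptor, rose (0.815), and TGFB1 did not pass (0.518, adjusted p = 0.0960). CLDN7 (-0.60) and CDH1 (-0.58) were the 2 of 13 epithelium genes that fell, against 0.463% of all tested genes. The CDH1 call (adjusted p = 0.0439) was lost with Spearman's rho (-0.57, adjusted p = 0.0616) and with COL1A1 alone (r = -0.53, 0.120). It was lost without the 2 tumors of most extreme collagen level (-0.54, 0.133) and without tumors 9, Po and 5 (-0.53, 0.167), which include those 2. Smooth muscle (0.658) or leukocyte and endothelial cell levels (0.221) as covariates also ended it. So did the epithelium level (0.430), but that level contains CDH1. Leaving out 1 tumor at a time ended it for 18 of 29 tumors, among them Po (0.136), with r between -0.66 and -0.51. The call held under the other alternatives, among them DESeq normalization (0.0281), the wider collagen list (0.0111) and the fibroblast level (0.0371). None of 11 epithelial regulators passed in limma, with ESRP2 nearest (-0.56, adjusted p = 0.0660).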

How the data were processed

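The authors trimmed the paired-end reads, aligned them to CanFam 3.1 with COBWeb in Strand NGS 3.1, quantified annotated genes and normalized them by TMM and by DESeq. The deposited log2 values of both tables are centred by gene; log2 and centring were read from the values. An incomplete last line of each table was left out. The values are not counts, so the depth of each sample is unknown and no count test was run. No sequence or coordinate is given, because the annotation at hand was of another build.

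No further transformation was applied. Genes were kept for testing when 4 or more samples (for tumor relations, 4 tumors) exceeded the lowest value. Tumors and normals, and each gene against each level, were fitted with limma 3.58.1 in R 4.3.3 (trend, Benjamini-Hochberg over all tested genes; adjusted p of at most 0.05, and a 2-fold change between groups). The p-values measure the spread between these samples. A level is the mean z over tumors of a list's measured genes. In the main fits, a list's own genes were left out of the genes related to its level. They were kept where the level was a covariate, so CDH1 was fitted with an epithelium level that contains it. Permutations used Python 3.11.15 with scipy 1.17.1. The fits were tested on simulated data with known changes. Those values were drawn independently and without a shared lowest value, so such ties were not covered. The members and gene lists were chosen with earlier results of these data known. Genes named beside the members are the 3 closest to each member, and the 2 with the smallest adjusted p on each list. Alternatives were the second table deposited by the authors, other filters, variance models, levels and covariates, and samples left out.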

Additional observations from a re-analysis of the deposited data

Results flagged for a closer look

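Normal sample D had the highest ZEB2 of the 4 normal samples (1.96 against 1.59 to 1.65), and its gap to the nearest, divided by the range of the group, was 0.845, above Dixon's limit for 4 samples. It was the only one of 6 members whose normal samples passed that limit, and chance alone passes it in about 1 of 20 groups.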

How the results depend on the processing

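The 5 members lower in tumors were 5 under each of the alternatives run, including each normal sample left out. Relative to the median change of the smooth muscle list, they turned positive, with log2 values of 2.97 for ZEB1, 4.40 for ZEB2, 2.94 for VIM, 0.42 for CDH2 and 4.14 for CDH11, by construction of that reference. The median change over all tested genes was -0.84, against -1.11 with DESeq normalization and -0.01 among the 18418 genes above the lowest value in at least 17 samples. Genes called higher numbered 2615, against 1377 with DESeq normalization and 5603 with no fold threshold, and genes called lower 11206, against 5543 among those 18418. SNAI1, which did not pass, ran from -0.32 to 0.0069 with 1 normal sample left out. The 4 members rising with the collagen level were 2 without the 2 tumors farthest from the median. They were 2 with leukocyte and endothelial cell levels as covariates, 1 with the epithelium level and 0 with the smooth muscle level. They were 1 without the 3 tumors with most olfactory receptor genes, which include the 2 farthest from the median. Leaving out each tumor in turn gave 2 to 4. Over all genes, 455 rose with the collagen level, and between 4 (smooth muscle covariate) and 811 (wider collagen list) under the alternatives. Spearman's rho gave 3 members, without ZEB2. The cause was not tested. CDH2, never past the threshold, had a collagen r of 0.00024 with COL1A1 alone, 0.013 with the wider collagen list, 0.109 with the fibroblast level, 0.034 over the 24 tumors above its lowest value, 0.042 with the olfactory receptor share, 0.083 with leukocyte and endothelial cell levels 0.031 with the epithelium level and -0.26 with the smooth muscle level as covariates, and between -0.15 and 0.033 with each tumor left out. SNAI1 had -0.17 with leukocyte and endothelial cell levels as covariates. Pairs of members that passed went from 7 to 4 with the collagen level as a covariate. No paired analysis was possible because the normal and tumor samples come from different dogs and share no replicate number.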
